A study of Homo sapiens with 21 samples.

Results

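The SNHG genes and GAS5 are transcribed hosts of small nucleolar RNAs. They were taken here as the genes of the RNA count table whose symbol is SNHG followed by a number, or GAS5. The rule found 33 entries under 29 symbols, of 66738 genes in the table, because SNHG32 is listed 5 times, once on chromosome 6 and once on each of 4 alternate contigs. Of the 33 entries, 26 (25 symbols) passed the filter on low counts and were tested among 17939 genes. RS4;11, a long-established human cell line of B-lineage acute lymphoblastic leukaemia with the KMT2A-AFF1 fusion, was kept for 24 h in 1 of 3 media. In -Asn+Fe the medium had no asparagine but received ferric nitrate at 10 µM together with hinokitiol at 0.75 µM, which ferries iron through lipid membranes. In -Asn asparagine was left out and no iron is named, and +Asn was complete medium. Each medium has 3 RNA libraries and 3 libraries of chromatin immunoprecipitation for H3K4me3, a histone mark of active promoters. Whether the 3 libraries of a medium come from separate cultures is not in the labels, so p-values measure the spread between these libraries. The protocol of all samples names hinokitiol with the iron and does not say whether -Asn and +Asn received it, so the effects of iron and of its carrier cannot be told apart.

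Box C/D snoRNAs guide the methylation of ribosomal RNA and box H/ACA snoRNAs its pseudouridylation, and most of them in human cells are cut out of the introns of longer host transcripts. In the SNHG hosts the spliced exons mostly encode no known protein. The spliced RNAs of several of them, GAS5 being the classic case, carry short open reading frames and are destroyed by nonsense-mediated decay while they are translated, so they are known to build up when translation stops. Many of their transcripts also begin with an oligopyrimidine tract (a TOP sequence), the feature by which mTOR controls the translation of ribosomal protein mRNAs.

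The start sites of some members are shown from 50 bases before to 50 bases from the start itself, as RefSeq gives them on GRCh38.p14. Windows were on hand for 25 of the 29 symbols, with SNHG6, SNHG9, SNHG15 and SNHG25 not among them. Capitals mark the letters TATAA where they lie 45 to 16 bases before the start, and runs of C followed by at least 5 further pyrimidines that begin within 20 bases of the start. SNHG10 and SNHG11, which rose at least 2-fold without asparagine, are not shown and hold neither. All members found with TATAA are shown, so the sequences do not give its share among the members. The first 5 sequences hold TATAA, SNHG1 and GAS5 were higher without asparagine and hold none, and SNHG4 and SNHG31 were lower. They are SNHG8 at chr4:118278712-118278811 (plus strand), SNHG5 at chr6:85678684-85678783 (minus strand), SNHG7 at chr9:136728135-136728234 (minus strand), SNHG12 at chr1:28581824-28581923 (minus strand), SNHG19 at chr16:2155309-2155408 (minus strand). The others are SNHG1 at chr11:62855836-62855935 (minus strand), GAS5 at chr1:173868996-173869095 (minus strand), SNHG4 at chr5:139274051-139274150 (plus strand), SNHG31 at chr2:214810179-214810278 (plus strand).
SNHG8: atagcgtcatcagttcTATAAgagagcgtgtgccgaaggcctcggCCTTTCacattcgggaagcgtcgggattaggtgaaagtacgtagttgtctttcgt
SNHG5: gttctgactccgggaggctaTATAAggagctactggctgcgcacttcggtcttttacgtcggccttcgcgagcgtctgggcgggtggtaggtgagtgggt
SNHG7: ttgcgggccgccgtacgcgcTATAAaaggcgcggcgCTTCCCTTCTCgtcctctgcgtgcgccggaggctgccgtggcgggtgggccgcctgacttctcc
SNHG12: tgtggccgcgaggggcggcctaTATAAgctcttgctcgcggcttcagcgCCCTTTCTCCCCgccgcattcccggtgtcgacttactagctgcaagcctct
SNHG19: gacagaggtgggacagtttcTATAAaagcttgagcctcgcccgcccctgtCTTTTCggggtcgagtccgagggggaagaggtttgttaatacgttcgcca
SNHG1: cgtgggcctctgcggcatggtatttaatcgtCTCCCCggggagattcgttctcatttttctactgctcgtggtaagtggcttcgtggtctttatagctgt
GAS5: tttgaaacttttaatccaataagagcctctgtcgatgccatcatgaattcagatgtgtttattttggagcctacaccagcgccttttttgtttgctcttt
SNHG4: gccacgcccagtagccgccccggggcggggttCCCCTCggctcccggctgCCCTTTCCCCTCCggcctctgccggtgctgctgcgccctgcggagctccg
SNHG31: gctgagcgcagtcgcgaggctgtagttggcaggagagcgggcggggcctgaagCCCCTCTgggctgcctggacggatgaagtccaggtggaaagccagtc

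TATAA was found at that distance in 5 of the 25 members (SNHG5, SNHG7, SNHG8, SNHG12 and SNHG19), and in 4.42% of 27305 promoters of all genes searched the same way on the gene's own strand. A pyrimidine run at the start was found in 15 of the 25 members and in 33.0% of all promoters, and both features in 4 members (SNHG7, SNHG8, SNHG12 and SNHG19) and in 1.49% of all. GAS5 held no run by this definition at the RefSeq start, which lies 163 bp from the 5′ end of GAS5 in the count table, and its window was the poorest in G and C at 37.7%, against a median of 62.3% over the members and 58.3% over all promoters. Letters read on both strands of the whole window of 300 bases gave few matches. TGATGCAA, a composite ATF4 and CEBP motif, was in 0 of 25 members and 0.923% of all promoters. CACGTG, an E-box, was in 2 members (7.43% of all), CCGGAAG, an ETS motif, in 2 (10.7%) and GATTGGC, the motif of NF-Y, in 4 (6.82%). The palindromic motif of NRF1 was in 0 members and 1.36% of all promoters. The RefSeq start lay inside the H3K4me3 region matched to the gene in 20 of the 25.

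The RNA libraries held 29362707 to 42478518 counts. Levels are CPM, counts scaled to a common library size, after TMM scaling, which corrects for library composition and had factors of 1.06 to 1.09 in -Asn+Fe, 1.02 to 1.06 in -Asn and 0.888 to 0.912 in +Asn. After a level, ± is an SD over 3 libraries, and after a change it is the standard error (SE) of the fit. Changes are log2 fold changes from edgeR's quasi-likelihood fit over all 9 libraries, and a gene is called at an adjusted p below 0.05. One RNA library stood apart. Replicate 1 of -Asn differed from replicates 2 and 3 with a chi-square per degree of freedom of 40.7 and 45, against 6.17 between replicates 2 and 3. Some results that move without replicate 1 of -Asn are given both ways, but not all. Of 14 precursor B-cell markers 13 were at 1 CPM or more, with summed levels of 2485 to 2579, 2840 to 2921 and 3400 to 3510 CPM in -Asn+Fe, -Asn and +Asn. Of the markers of other cell types only TRAC (313 CPM), CSF1R (13.2 CPM) and COL1A1 (1.94 CPM) reached a mean of 1 CPM over all 9 libraries. The myeloid marker LYZ averaged 0.346 CPM in -Asn+Fe, 0.346 CPM in -Asn and 1.30 CPM in +Asn, and erythroid and epithelial markers summed to at most 0.0886 and 0.240 CPM in any library. These are bulk libraries, in which fewer cells of a kind and less RNA per cell cannot be told apart.

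Without asparagine the host RNAs as a whole took a larger share of the library. Summed over all members they reached 2569, 2832 and 2598 CPM in -Asn+Fe, 3442, 2823 and 2755 CPM in -Asn, and 1777, 1632 and 1666 CPM in +Asn. Neither medium without asparagine overlapped +Asn, and the highest library was the -Asn replicate that stood apart. As raw counts this was 0.285% to 0.351% of all counts in -Asn and 0.145% to 0.162% in +Asn.

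Comparing -Asn with +Asn, 13 of the 26 tested entries rose, 5 fell and 8 did not pass the test. Across all genes 31.0% rose and 30.2% fell, so that calls were common everywhere. The median change over the tested entries was 0.57, against 0.04 over all tested genes. Changes of at least 2-fold were called upward in 6 entries and downward in 1, where the background over all genes was 14.6% and 8.26%. Scaling by library totals alone or by upper-quartile factors moved the median of all genes to 0.25 and 0.20. Both scalings move changes upward, with 15 entries called higher under each, so they are no check on the 13 rises. Of the 5 falls that of SNHG16 lost its call under both scalings.

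**Figure D1:**
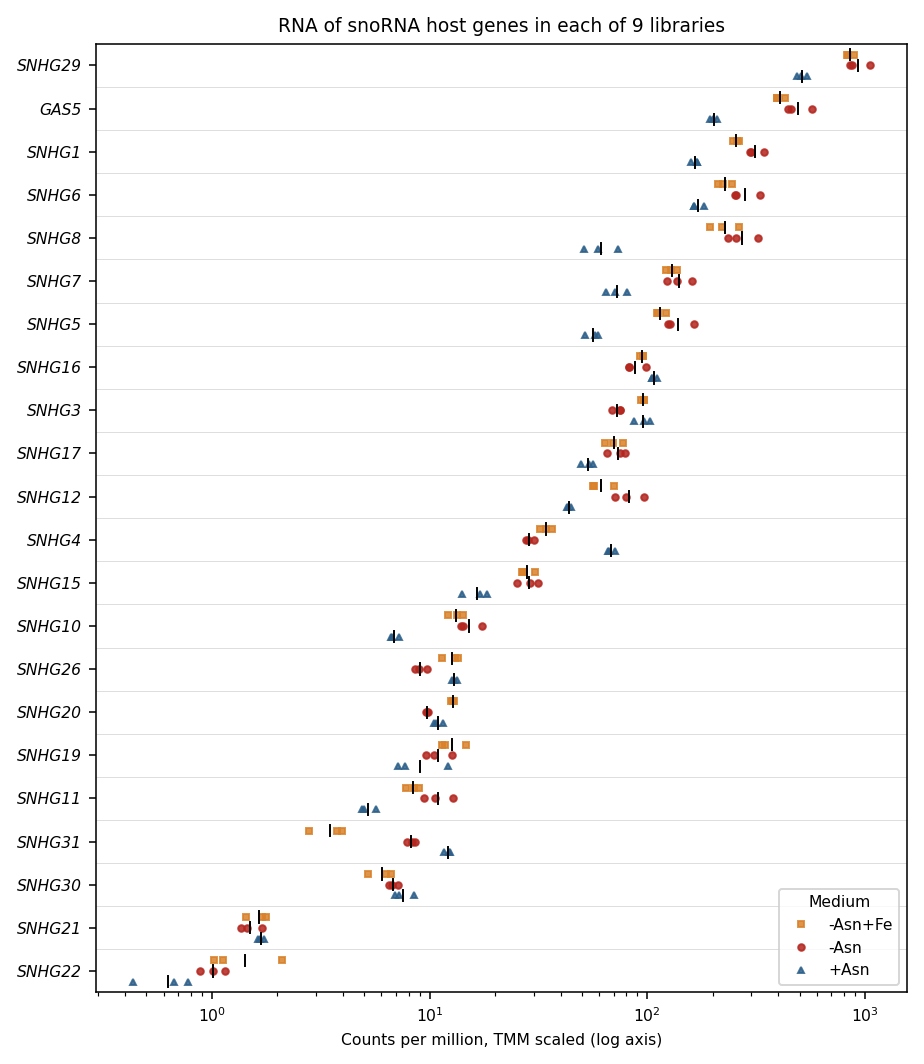
RNA level of the 22 host genes that average 1 CPM or more, in CPM on a log axis, for each of 3 libraries in -Asn+Fe (squares), -Asn (circles) and +Asn (triangles), with the group mean as a black bar. SNHG29 is the highest and SNHG22 the lowest, and SNHG8 shows the widest gap between the media without asparagine and +Asn among the higher genes.

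SNHG8, the host of the H/ACA snoRNA SNORA24, rose most among the well-expressed members. It had 195, 265 and 221 CPM in -Asn+Fe, 324, 254 and 236 CPM in -Asn, and 73.1, 50.9 and 59.3 CPM in +Asn. Every library without asparagine was far above the highest with it, and -Asn+Fe and -Asn overlapped. The change was 2.15 ± 0.15 (SE) in -Asn over +Asn, or 4.44-fold (adjusted p = 6.42e-09), and 1.89 ± 0.15 in -Asn+Fe over +Asn (adjusted p = 2.00e-08). Exons of PRSS12 on the other strand cover 37.6% of the exon length of SNHG8, and PRSS12 averaged 582 CPM in -Asn+Fe, 639 CPM in -Asn and 632 CPM in +Asn, a change of 0.02 in -Asn over +Asn (not called). No source used here gives the strand setting of the counting, so reads of the 2 genes cannot be told apart where they overlap.

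GAS5, which in the files spans chr1:173858559-173868882 on the minus strand, had 393, 429 and 394 CPM in -Asn+Fe, 572, 458 and 441 CPM in -Asn, and 210, 194 and 201 CPM in +Asn. No library without asparagine came near the +Asn values. GAS5 rose by 1.28 ± 0.09 in -Asn over +Asn, or 2.43-fold (adjusted p = 2.66e-09), and the change was 1.15 without -Asn replicate 1. SNHG5, the host of the C/D snoRNA SNORD50B, had 111, 122 and 111 CPM in -Asn+Fe, 163, 127 and 124 CPM in -Asn, and 59.5, 51.5 and 57.5 CPM in +Asn. Here too the +Asn libraries lay apart from all others, and the change was 1.30 ± 0.10 in -Asn over +Asn (adjusted p = 5.51e-09).

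SNHG10 and SNHG11 rose at least 2-fold at a much lower level. SNHG10, the host of the Cajal body RNA SCARNA13, had 13.3, 14.2 and 12.2 CPM in -Asn+Fe, 17.5, 14.2 and 13.9 CPM in -Asn, and 7.20, 6.68 and 6.72 CPM in +Asn. SNHG11, which holds SNORA60 and SNORA71E, had 7.82, 8.97 and 8.47 CPM in -Asn+Fe, 12.8, 10.6 and 9.45 CPM in -Asn, and 5.67, 4.87 and 5.01 CPM in +Asn. In both genes the +Asn libraries were the 3 lowest. The changes in -Asn over +Asn were 1.14 ± 0.11 for SNHG10 and 1.07 ± 0.13 for SNHG11 (adjusted p = 1.62e-07 and 1.69e-06), and without -Asn replicate 1 that of SNHG11 was 0.94.

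A further 7 members rose by less than 2-fold, and they include most of the abundant hosts. SNHG29, the most abundant by count and the host of SNORD49A, SNORD49B and SNORD65, averaged 849 ± 31.4 CPM in -Asn+Fe, 925 ± 115 CPM in -Asn and 512 ± 27.9 CPM in +Asn, a change of 0.85 in -Asn over +Asn. SNHG1 holds 6 C/D snoRNAs with names between SNORD22 and SNORD30. It averaged 256 ± 8.95 CPM in -Asn+Fe, 313 ± 27.9 CPM in -Asn and 165 ± 5.67 CPM in +Asn, a change of 0.92. SNHG6 (SNORD87) changed by 0.72, SNHG7 (SNORA17A and SNORA17B) by 0.95, SNHG12 (SNORA44, SNORA61 and others) by 0.92, SNHG15 (SNORA9) by 0.79 and SNHG17 (the SNORA71 group) by 0.46. In all 7 the libraries of -Asn and +Asn did not overlap, and their adjusted p ran between 1.30e-08 and 0.000232 by edgeR. Genes that are called tend to have groups that lie apart, and how often this holds over all genes was not counted. SNHG7 shares 30.3% of its exon length with DIPK1B on the other strand, which fell by 0.94 in -Asn over +Asn.

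Set against length, the order of levels changes. Per kb of merged exon, SNHG6 led with 182, 224 and 136 CPM per kb in -Asn+Fe, -Asn and +Asn, ahead of SNHG29 with 118 CPM per kb in -Asn+Fe, 129 in -Asn and 71.4 in +Asn. GAS5 had 83.7 CPM per kb in -Asn+Fe, 101 in -Asn and 41.7 in +Asn. The small gene SNHG19, with 342 bp of exon, reached 36.9 CPM per kb in -Asn+Fe, 32 in -Asn and 26.3 in +Asn. SNHG8 stood near it in the media without asparagine, with 34.3 CPM per kb in -Asn+Fe, 41.1 in -Asn and 9.25 in +Asn. Merged exons join those of all annotated transcripts, so a gene with long rare exons gets a low value on this scale.

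5 members fell in -Asn. SNHG4, the host of SNORA74A, fell most. It had 34.2, 36.4 and 32 CPM in -Asn+Fe, 30.0, 28.4 and 27.7 CPM in -Asn, and 66.9, 71.1 and 65.8 CPM in +Asn. The +Asn libraries lay far above all others, and every -Asn library was below every -Asn+Fe library. The change was -1.24 ± 0.07 in -Asn over +Asn (adjusted p = 3.23e-10), the one fall of at least 2-fold. SNHG4 shares 14.0% of its exon length with an entry of MATR3 on its own strand, at a mean of 1.17 CPM.

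The other falls were smaller. SNHG31, whose span holds SNORA70I, changed by -0.56 ± 0.12, SNHG26 (SNORD93) by -0.52 ± 0.10, SNHG3 (SNORA73A and SNORA73B) by -0.39 ± 0.07 and SNHG16 (SNORD1A, SNORD1B and SNORD1C) by -0.28 ± 0.08, each called by edgeR and with no overlap between -Asn and +Asn. The call for SNHG16 (adjusted p = 0.00366) was lost under 4 of 18 other settings, library totals among them. SNHG19, SNHG20, SNHG21, SNHG22 and SNHG30 were not called between -Asn and +Asn, with changes between -0.16 and 0.69.

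**Figure D2:**
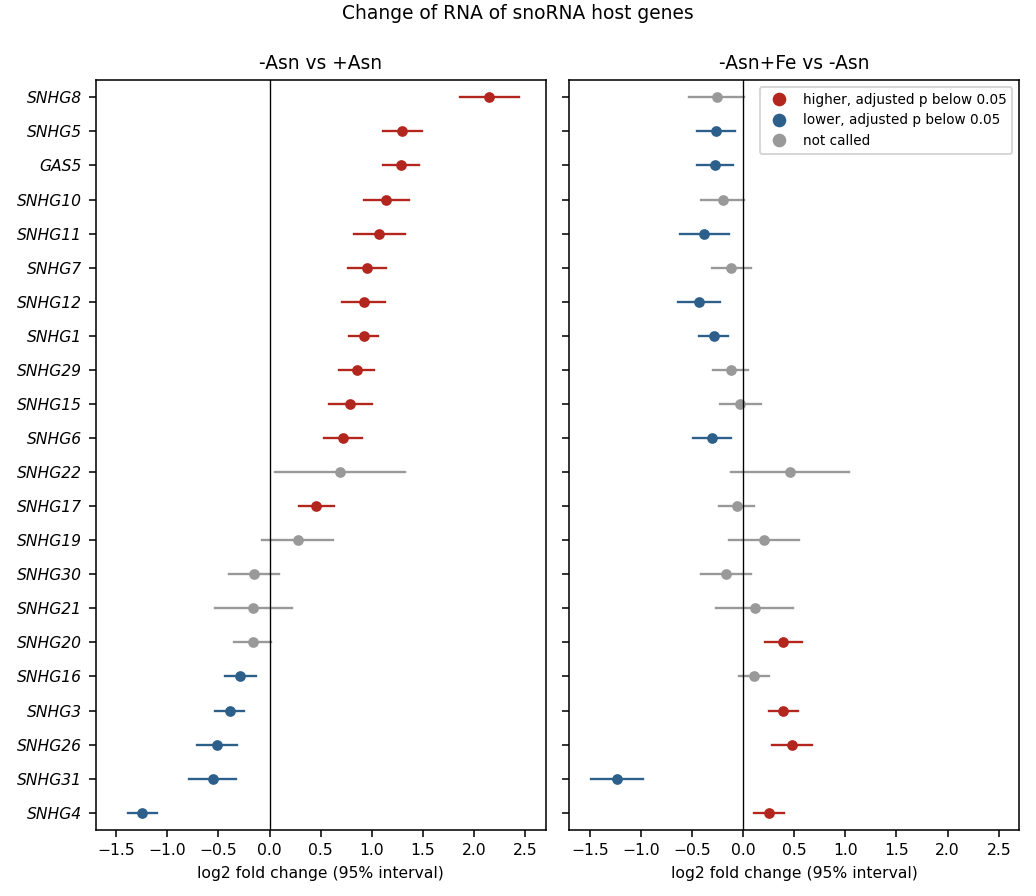
log2 fold change with its 95% interval for the same 22 host genes, in -Asn over +Asn on the left and in -Asn+Fe over -Asn on the right, ordered by the left panel, with calls at an edgeR adjusted p below 0.05 in red (higher) and blue (lower). The left panel runs between 2.15 for SNHG8 and -1.24 for SNHG4, while on the right all genes but SNHG31 lie within 0.5 of 0.

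Fewer host RNAs were called between the media without asparagine, with and without iron. Comparing -Asn+Fe with -Asn, 4 of the 26 entries rose and 7 fell, where 14.0% and 16.8% of all genes did, and 15 did not pass the test. The median change was -0.12 over these entries and -0.01 over all genes. SNHG31 was the one member called with a change of at least 2-fold, where 1.95% of all genes fell and 3.33% rose that much. It had 3.74, 3.96 and 2.78 CPM in -Asn+Fe, 7.90, 8.52 and 8.25 CPM in -Asn, and 11.6, 12.4 and 12.3 CPM in +Asn. The 3 media were fully separate, with the iron medium lowest. The change was -1.23 ± 0.13 in -Asn+Fe over -Asn (adjusted p = 2.28e-06) and -1.79 ± 0.13 in -Asn+Fe over +Asn (adjusted p = 2.27e-09).

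The other 6 falls in -Asn+Fe were of genes that had risen in -Asn: SNHG12 by -0.43, SNHG11 by -0.38, SNHG6 by -0.30, SNHG1 by -0.29, GAS5 by -0.28 and SNHG5 by -0.27. All 6 stayed above +Asn, with changes in -Asn+Fe over +Asn of 0.41 to 1.03. This comparison and that of -Asn with +Asn share the -Asn libraries, among them the replicate that stood apart. With library totals, upper-quartile factors or only the 6 libraries compared, 3 members were lower (SNHG1, SNHG12 and SNHG31), so that GAS5, SNHG5, SNHG6 and SNHG11 lost their calls. Without -Asn replicate 1, 4 members were lower (GAS5, SNHG1, SNHG12 and SNHG31), and without -Asn+Fe replicate 1 or replicate 3, 3 were (SNHG1, SNHG12 and SNHG31). Leaving out -Asn replicate 1 moved the change of GAS5 to -0.14 (adjusted p = 0.0491 by edgeR). That of SNHG11 moved to -0.24 (adjusted p = 0.133 by edgeR). SNHG12, at 56.2, 70.6 and 56.7 CPM in -Asn+Fe and 96.7, 79.7 and 70.8 CPM in -Asn, had groups that lay side by side without overlap, the highest -Asn+Fe library just below the lowest -Asn library.

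The 4 members higher in -Asn+Fe than in -Asn were SNHG26 (0.48 ± 0.10), SNHG3 (0.39 ± 0.07), SNHG20 (0.39 ± 0.09) and SNHG4 (0.25 ± 0.07). SNHG3 had 96.5, 93.2 and 96.9 CPM in -Asn+Fe, 74.7, 74.9 and 68.9 CPM in -Asn, and 103, 96.4 and 87.1 CPM in +Asn. The -Asn+Fe libraries of SNHG3 fell inside the range of +Asn, and its change between those media was 0.00, with a 95% interval of -0.14 to 0.14. SNHG26 had 13.1, 13.5 and 11.5 CPM in -Asn+Fe, 8.54, 8.97 and 9.71 CPM in -Asn, and 13.4, 12.6 and 13 CPM in +Asn, and its interval between -Asn+Fe and +Asn was -0.23 to 0.16. SNHG4 stayed at -0.99 against +Asn. SNHG3 shares 5.92% of its exon length with RCC1 (mean 157 CPM) on the same strand and SNHG20 7.56% with SEC14L1 (63.3 CPM).

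Over both steps, comparing -Asn+Fe with +Asn, 16 entries were higher and 4 lower, where 32.9% and 31.9% of all genes were, and the median was 0.48 over these entries and 0.05 over all genes. Changes of at least 2-fold were called upward in 5 entries (SNHG8, SNHG22, SNHG5, GAS5 and the GL000251.2 entry of SNHG32) and downward in SNHG31, where 17.3% and 10.5% of all genes moved that far. SNHG19, SNHG22 and SNHG30 were called here and in neither other comparison, though the comparisons themselves were not set against each other by a test. SNHG22, the host of SCARNA17, had 1.13, 2.09 and 1.02 CPM in -Asn+Fe and 0.776, 0.432 and 0.672 CPM in +Asn, with no overlap, a change of 1.14 ± 0.32 (adjusted p = 0.00448). SNHG19 changed by 0.48 with overlapping libraries. SNHG30, the host of SNORD7, changed by -0.32. Calls for SNHG16, SNHG19, SNHG20 and SNHG30 were each lost in at least 4 of 18 other settings, and without -Asn+Fe replicate 1, -Asn+Fe replicate 3 or +Asn replicate 1 the members lower were 2 rather than 4.

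The members not yet described were rare. SNHG9 and SNHG25 passed the filter with means of 0.992 and 0.695 CPM and were called in no comparison, and neither was SNHG21 at 1.61 CPM, of which 72.9% of the exon length is shared with AC105339.2 on the same strand. The 5 entries of SNHG32 together had 41, 34 and 44 counts in -Asn+Fe, 37, 42 and 66 counts in -Asn, and 20, 22 and 30 counts in +Asn. Reads of this gene fall on near-identical copies, so the call of its entry on contig GL000251.2 (2.16 ± 0.49 in -Asn over +Asn, from 52 counts over 3 libraries in -Asn and 10 in +Asn) is uncertain. SNHG14, the long host of the imprinted snoRNAs on chromosome 15, had 54 counts over all 9 libraries and SNHG27 had 8. SNHG18 and SNHG28 had 0 counts in every library, which allows a level of up to 0.0964 CPM in the shallowest, for counting error only.

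Of the members averaging 1 CPM or more, 5 start head to head with a protein-coding gene that does too, with start sites within 1 kb on opposite strands. SNHG9 and SNHG18, below that level, also have such a neighbour and are not compared here. SNHG1 starts 149 bp from SLC3A2, the heavy chain of amino acid transporters. SLC3A2 had 543, 616 and 588 CPM in -Asn+Fe, 518, 447 and 437 CPM in -Asn, and 111, 88.9 and 98.2 CPM in +Asn. It rose by 2.23 ± 0.09 in -Asn over +Asn, where SNHG1 rose by 0.92, and by a further 0.32 in -Asn+Fe over -Asn, where SNHG1 fell by 0.29. The difference between the partners was not tested.

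The other pairs moved in different ways. BARD1, the partner of BRCA1, starts 498 bp from SNHG31 and fell by 1.25 in -Asn over +Asn and by a further 0.46 in -Asn+Fe over -Asn, the same directions as SNHG31. TRAF7, an E3 ubiquitin ligase 340 bp from SNHG19, fell by 0.52 in -Asn over +Asn, where SNHG19 was not called. ACAA2, a mitochondrial thiolase of fatty acid oxidation 70 bp from SNHG22, fell by 0.78 in -Asn over +Asn and by 1.03 in -Asn+Fe over +Asn, where SNHG22 rose by 1.14. ZBTB37, a zinc finger gene 800 bp from GAS5, was not called in -Asn over +Asn at 0.32 (adjusted p = 0.0983) by edgeR, but its -Asn replicate 1 was the lowest of all 9 libraries at 35.7 CPM, and without that library the change was 0.54 (adjusted p = 6.50e-07).

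**Figure D3:**
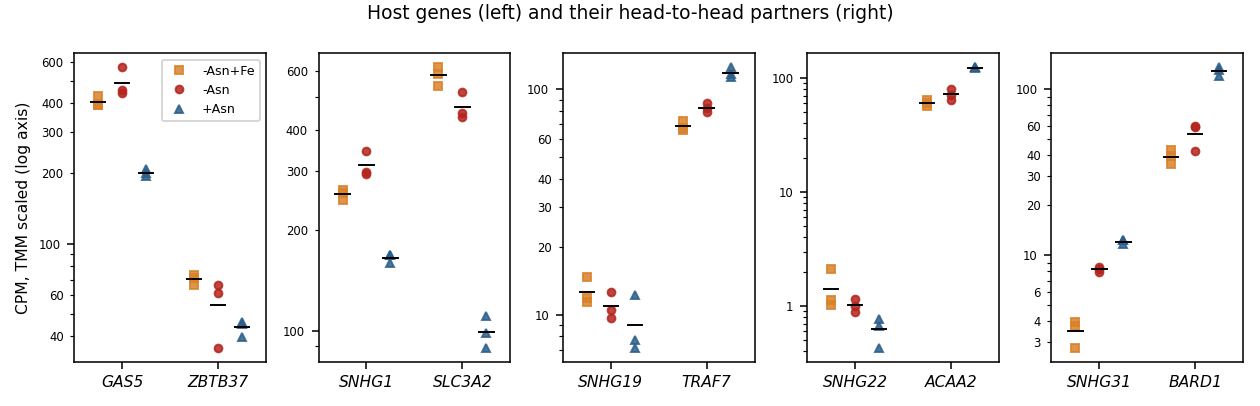
RNA level in CPM on log axes, one panel for each host gene (left) and the protein-coding gene that starts head to head with it (right), with 3 libraries each in -Asn+Fe, -Asn and +Asn and the mean as a black bar. SNHG1 and SLC3A2 are both higher without asparagine, SNHG31 and BARD1 both lower, and SNHG22 and ACAA2 differ in direction.

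The snoRNAs themselves were hardly counted. Only genes named SNORD, SNORA or SCARNA were counted. Entries typed as snoRNA or scaRNA under other names, such as RF00099 inside SNHG1, were left out. By name the table holds 131 such genes inside 26 of the members on the same strand, 83 of them in SNHG14. Of the 131, 122 had 0 counts in every library. Of the 48 outside SNHG14, 36 lie at least in part on annotated exons of their host, and how reads shared by 2 genes were counted is not known here. None lies inside GAS5 in this annotation. Only 3 averaged 1 CPM or more. SNORA71B, inside SNHG17, averaged 2.48 ± 0.74 CPM in -Asn+Fe, 1.91 ± 0.26 CPM in -Asn and 2.92 ± 0.11 CPM in +Asn, a change of -0.61 ± 0.20 in -Asn over +Asn (adjusted p = 0.0151), while SNHG17 rose. SNORA73B (SNHG3) and SNORD104 (SNHG25) were not called. These libraries say little about mature snoRNAs, and reads of unspliced host RNA over a snoRNA cannot be told from the snoRNA itself.

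Among 4 non-coding hosts outside the SNHG names, the 3 tested were all called in -Asn over +Asn, where 31.0% of all genes rose and 30.2% fell. ZFAS1, the host of SNORD12 family RNAs, averaged 168 ± 13.3 CPM in -Asn+Fe, 225 ± 23.4 CPM in -Asn and 56.9 ± 3.76 CPM in +Asn. It rose by 1.99 in -Asn over +Asn and fell by 0.42 in -Asn+Fe over -Asn, and EPB41L4A-AS1 did likewise with 1.23 and -0.41. DANCR fell by 1.12 in -Asn over +Asn, and MEG8 did not pass the filter.

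Among protein-coding hosts more genes fell than rose. Of 34, 6 rose, 19 fell and 9 did not pass the test in -Asn over +Asn, where 31.0% of all genes rose and 30.2% fell, with a median of -0.25. HSPA8, a heat shock chaperone, averaged 852 ± 26.1 CPM in -Asn+Fe, 447 ± 44.6 CPM in -Asn and 1541 ± 54.9 CPM in +Asn. It fell by 1.79 in -Asn over +Asn and rose by 0.93 in -Asn+Fe over -Asn. NCL, which encodes nucleolin of the nucleolus, fell by 1.24 in -Asn over +Asn, IPO7, a nuclear import receptor, by 1.06, and CCT6A, a chaperonin subunit, by 1.04. Of the same 34, 5 rose and 6 fell in -Asn+Fe over -Asn, near the shares of 14.0% and 16.8% over all genes, with RABGGTB at 0.36, PPAN at 0.34 and CWF19L1 at -0.40 beside HSPA8.

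The mRNAs of proteins that build and load snoRNPs were lower or not called in -Asn. Of 21 genes listed, FBL and ZNHIT3 did not pass the filter on low counts. Of the 19 tested genes 0 rose, 13 fell and 6 did not pass the test in -Asn over +Asn by edgeR. Their median was -0.42, and 31.0% of all genes rose and 30.2% fell. By DESeq2 0 of the 19 rose too, and 0 rose at an unadjusted p below 0.05. NHP2, a core H/ACA protein, averaged 44.6 ± 6.61 CPM in -Asn and 119 ± 10.9 CPM in +Asn, a change of -1.42. NOLC1, a nucleolar chaperone of snoRNPs, changed by -1.16, NUFIP1, an assembly factor of C/D snoRNPs, by -0.85, and SHQ1, an assembly factor of H/ACA snoRNPs, by -0.78. Between -Asn+Fe and -Asn 3 rose and 7 fell (14.0% and 16.8% of all genes), with the assembly helicases RUVBL2 and RUVBL1 at -0.50 and -0.41, PIH1D1 at -0.37 and NOPCHAP1 at 0.37.

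Of 24 nonsense-mediated decay factors, 5 rose, 9 fell and 10 did not pass the test in -Asn over +Asn, where 31.0% of all genes rose and 30.2% fell, with a median of -0.16. The decapping enzyme DCP2 fell by 0.62, the exon junction proteins MAGOHB and RNPS1 by 0.45 and 0.43, and UPF3A rose by 0.41. Between -Asn+Fe and -Asn 2 rose and 8 fell (14.0% and 16.8% of all genes), with SMG9 at -0.68, MAGOHB at -0.41, RBM8A at -0.35 and the kinase SMG1 at 0.50. SMG1 averaged 394.6 ± 12.81 CPM in -Asn+Fe, 279.1 ± 88.84 CPM in -Asn and 362.5 ± 20.99 CPM in +Asn. DCP2 averaged 170.8 ± 11.47, 151.7 ± 34.96 and 232.6 ± 5.29 CPM in the same order. Both spread most in -Asn, which holds the replicate that stood apart, and values without it are not given for these genes. Among 26 tested mRNAs known as targets of this decay, 12 rose, 8 fell and 6 did not pass the test in -Asn over +Asn, with a median of 0.23. The share that fell was near that of all genes. Among those averaging 5 CPM or more the largest rises were of DDIT3 at 4.74, ATF3 at 4.17, GADD45A at 2.30 and CDKN1A at 1.65, all of which are also stress response genes. The 8 that fell include the splicing factors SRSF2, SRSF3, SRSF6 and SRSF7. In -Asn+Fe over -Asn 8 rose and 2 fell (14.0% and 16.8% of all genes), among them CDKN1A at 0.83, GADD45A at 0.75, ATF3 at 0.71 and SESN1 at 0.62.

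Of 25 listed TOP mRNAs of the translation machinery, EEF1G and EIF3K did not pass the filter on low counts. Of the 23 tested, 5 rose, 4 fell and 14 did not pass the test in -Asn over +Asn, with a median of 0.01. Rises and falls were both fewer than the shares of 31.0% and 30.2% over all genes would give. The elongation factor EEF2 rose by 0.70 and TPT1 by 0.62, and the import receptors IPO5 and IPO7 fell by 1.24 and 1.06. In -Asn+Fe over -Asn none of the 23 was called higher by edgeR and 3 were lower (14.0% and 16.8% of all genes), among them HNRNPA1 at -0.26 and EIF4B at -0.21. At an unadjusted p below 0.05, 0 of the 23 were higher, and DESeq2 called 0 higher.

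H3K4me3 was deposited as the positions of peaks in each library, with no read counts, so what could be compared was the width of a region covered by peaks. A region lay within 1 kb of the 5′ end of 25 of the 29 members, and 24 of these were called in all 9 libraries and tested among 13883 regions with limma on log2 widths. The remaining one, SNHG20, had a region of 407 and 297 bp in 2 +Asn libraries and none elsewhere, while its RefSeq start, 1927 bp into the annotated gene, lay in another region. SNHG14, SNHG18, SNHG27 and SNHG28 had no region, and all 4 were at or near 0 in RNA.

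In -Asn over +Asn 5 member regions were narrower and 0 wider, where 1.43% of all regions were narrower and 14.7% wider. That background rests on the scale, since with each library centred on its median width 9 member regions were narrower and 0 wider, against 7.38% and 8.67% of all regions. The median log2 difference was -0.05 over the members and 0.09 over all regions, and at an unadjusted p below 0.05 7 of the 24 differed, near the share of 32.5% over all regions. SNHG4 narrowed most. Its region covered 1952, 2064 and 2050 bp in -Asn+Fe, 2024, 2334 and 1786 bp in -Asn, and 3058, 2955 and 3031 bp in +Asn. All 6 libraries without asparagine were below the narrowest +Asn library. The difference was -0.57 ± 0.08 (SE), or -32.5% (adjusted p = 0.00154), and it lay on the side of the gene. The peaks reached on average 1349 bp into SNHG4 in -Asn+Fe, 1421 bp in -Asn and 2386 bp in +Asn, and 672 bp upstream in -Asn+Fe, 688 bp in -Asn and 627 bp in +Asn. An entry of MATR3 starts 350 bp from SNHG4 on the same strand, so this region is shared with it.

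SNHG1 narrowed on both sides. Its region covered 3793, 3658 and 3785 bp in -Asn+Fe, 3536, 3683 and 3478 bp in -Asn, and 4392, 4762 and 4288 bp in +Asn. The groups without asparagine did not overlap +Asn, and the difference was -0.33 ± 0.05 in -Asn over +Asn (adjusted p = 0.00143). The peaks reached on average 2423 bp into SNHG1 in -Asn+Fe, 2316 bp in -Asn and 2643 bp in +Asn. Upstream, toward SLC3A2, they reached 1322 bp in -Asn+Fe, 1249 bp in -Asn and 1837 bp in +Asn. The RNA of both genes rose while this shared region was narrower.

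SNHG3 narrowed in -Asn, to 4406, 4567 and 4669 bp, against 5209, 5321 and 5288 bp in +Asn, with 5251, 4788 and 4975 bp in -Asn+Fe. The difference was -0.21 ± 0.04 (adjusted p = 0.00809), and its -Asn+Fe libraries lay above -Asn and met the +Asn range. RCC1 starts 37 bp from SNHG3 on the same strand, so the region lies at the 5′ ends of both. RNA of RCC1 fell by 0.67 in -Asn over +Asn and by a further 0.30 in -Asn+Fe over -Asn, where SNHG3 rose by 0.39. GAS5 covered 3561, 3550 and 3574 bp in -Asn+Fe, 2910, 3765 and 3021 bp in -Asn, and 3924, 3771 and 3934 bp in +Asn. One -Asn library nearly reached +Asn. The difference for GAS5 was -0.27 ± 0.08 (adjusted p = 0.0426 by limma). Without the H3K4me3 library of -Asn replicate 1 it was -0.20 (adjusted p = 0.0937). That library is not the RNA library of the same number that stood apart. SNHG9, whose region is shared with RPS2 at 118 bp, differed by -0.16 ± 0.05 (adjusted p = 0.0400 by limma), and by -0.14 without the same H3K4me3 library (adjusted p = 0.0789). With any 1 library of -Asn replicate 1, +Asn or -Asn+Fe replicates 2 and 3 left out, 3 regions were called instead of 5.

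**Figure D4:**
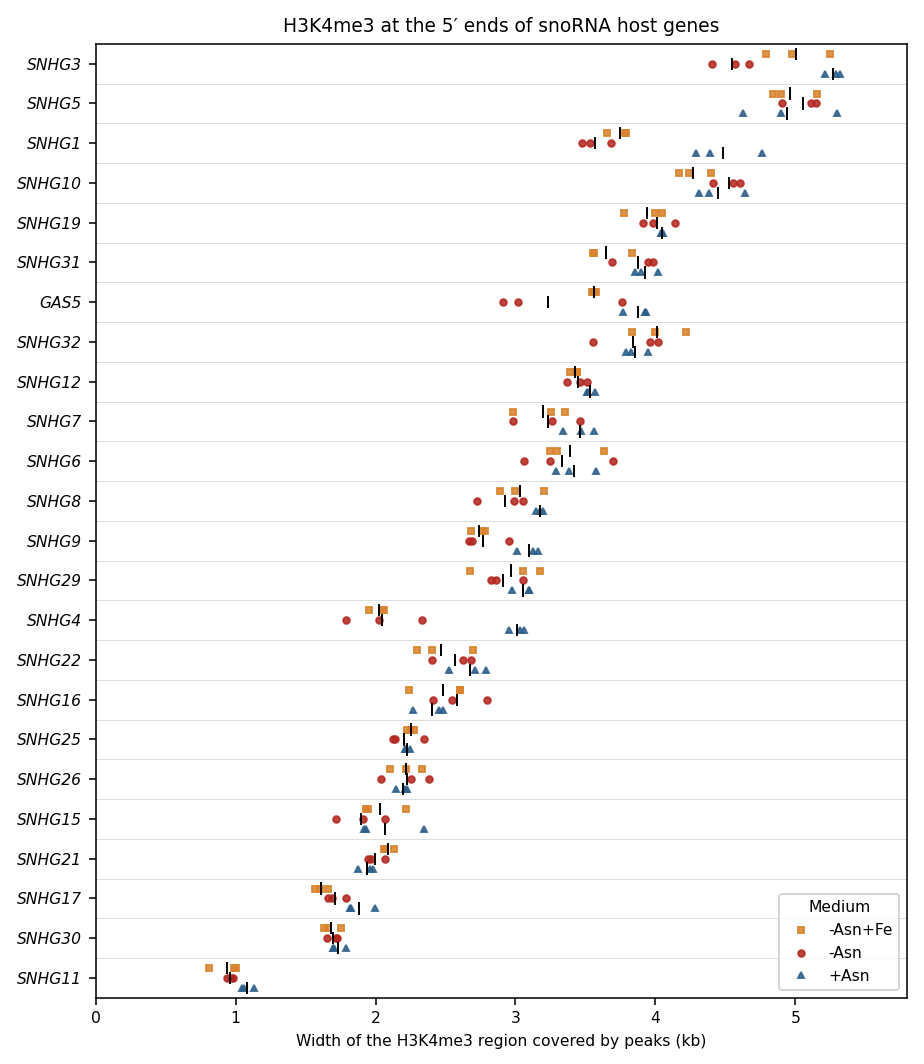
Width in kb of the H3K4me3 region at the 5′ end of 24 host genes that is covered by peaks, for 3 libraries each in -Asn+Fe (squares), -Asn (circles) and +Asn (triangles), with the mean as a black bar. SNHG4 and SNHG1 show +Asn to the right of all other libraries, and most other genes overlap between media.

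In -Asn+Fe over +Asn 4 regions were narrower, SNHG4 by -0.58, SNHG1 by -0.26, SNHG17 by -0.22 and SNHG9 by -0.18, and 0 were wider, where 1.84% of all regions were narrower and 11.6% wider. With each library centred on its median 12 were narrower and 0 wider, against 7.56% and 8.94% of all regions. Without -Asn+Fe replicate 1, -Asn+Fe replicate 2 or +Asn replicate 2 there were 2. In -Asn+Fe over -Asn limma called 0 of 24 regions of the members and 0 of 13883 in all, where 0% were called in either direction, and at an unadjusted p below 0.05 it gave 1 of the 24 and 7.53% of all regions.

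On the side of the gene the peaks were on average shorter in -Asn than in +Asn for 21 of the 24 members, and in 14 of them the -Asn and +Asn libraries did not overlap. Over the 11908 genes tested for RNA whose 5′ end has a region called in all 9 libraries, the peaks were shorter on that side in 35.6%, and shorter without overlap in 8.21%. On the upstream side 6 of 24 members were shorter, where 26.1% of these genes were. These shares are a description, with no test, and the genes compared were not matched for width. In the +Asn libraries the median width was 3122 to 3176 bp over the members and 1619 to 1672 bp over all tested regions. The 12 members with RNA that rose in -Asn over +Asn and a tested region had lower widths in 10 cases, 2 of them called (GAS5 and SNHG1), and the 5 with RNA that fell had lower widths in 3, 2 of them called (SNHG3 and SNHG4). Peak width depends on the depth and background of each library. The libraries had 15891 to 17206 regions called in -Asn+Fe, 15554 to 17448 in -Asn and 14741 to 15230 in +Asn, and its part in the widths was not tested.

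**Figure D5:**
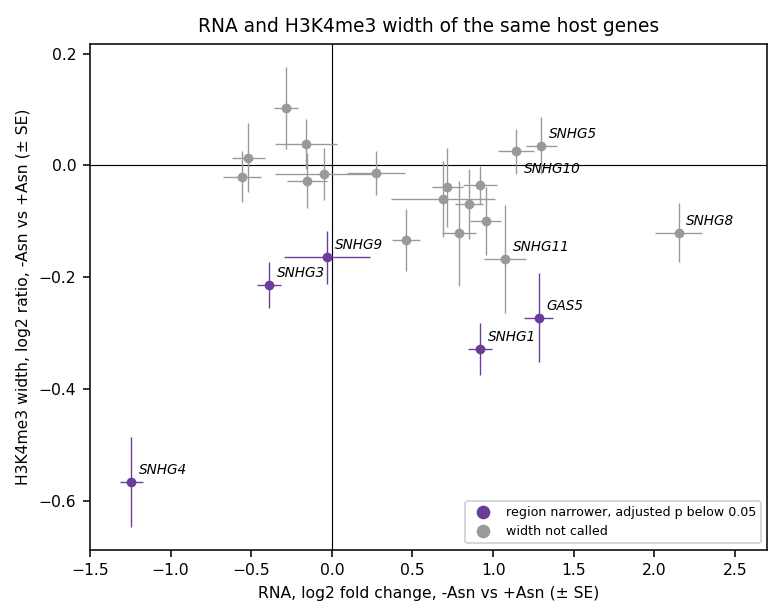
Change of RNA (horizontal axis, log2 fold change) against change of H3K4me3 width (vertical axis, log2 ratio) in -Asn over +Asn for the host genes with both values, each with its SE, regions called narrower in purple. SNHG1 and GAS5 lie to the right with RNA higher and width lower, and SNHG4 lies to the left with both lower.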

How the data were processed

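RNA values are raw counts per gene as the authors deposited them. Per the submitters' processing notes, reads were handled with bcl2fastq, STAR 2.7.2a and Subread 1.6.5 (featureCounts), with hg38 as the genome build. Strand and multi-mapping settings are not given in the sources used. H3K4me3 was deposited as peak positions per library, merged into 19279 regions (Bowtie2 2.4.4, Picard 2.18.26, MACS2 2.2.7.1 per the same notes, with no threshold given). Covered widths were computed from the positions. The 3 input libraries were not used here.

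All 9 RNA libraries were fitted together with edgeR 4.0.16 in R 4.3.3 (filterByExpr, TMM, robust quasi-likelihood test, Benjamini-Hochberg adjustment over 17939 genes), with 6 residual degrees of freedom and a common coefficient of biological variation of 0.0871. Log2 widths of 13883 regions called in all 9 libraries were fitted with limma 3.58.1 (trend, robust). Alternatives were DESeq2 1.42.0, other scalings and filters, a 1.2-fold minimum, fitting only the 6 libraries compared, other width definitions, a term for the replicate number, and each library left out. Both fits were tested on simulated data. Tables and figures were made with pandas 2.3.3 and matplotlib 3.10.9.

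The members, the 6 gene lists (135 list entries) and the tests were chosen with earlier results of these data known. Values are given for members averaging 1 CPM or more, and per library for those called, at least 2-fold changed and with groups that do not overlap. From each other list up to 4 called genes averaging 5 CPM or more, those with the largest change, are named in each of the first 2 contrasts, besides head-to-head partners and snoRNAs averaging 1 CPM or more. Values per library of SNHG3, SNHG12 and SNHG26, the overlapping genes PRSS12, DIPK1B and RCC1 and the SRSF genes lie outside this rule and were chosen after their values were seen. One gene that the rule would name is not reported here.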

Additional observations from a re-analysis of the deposited data

How the results depend on the processing

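Of the calls among members, 17 of 18 in -Asn over +Asn held under all 18 alternatives, the exception being SNHG16, and 16 of 20 did in -Asn+Fe over +Asn (SNHG16, SNHG19, SNHG20 and SNHG30 did not). In -Asn+Fe over -Asn 2 of 11 held under all, SNHG26 and SNHG31. The 7 members lower in -Asn+Fe than in -Asn became 3 with upper-quartile factors, with library totals or with only the 6 libraries compared, 4 with the stricter filter (1 CPM in 3 libraries and a mean of 5 CPM), 1 against a 1.2-fold minimum, and 3 to 7 with 1 library left out. The 4 higher became 1 against that minimum and were 4 to 5 with 1 library left out. The 4 members lower in -Asn+Fe than in +Asn became 2 with either scaling, the stricter filter or the minimum, and 2 to 4 with 1 library left out. Of the narrower regions, 5 in -Asn over +Asn became 9 and 4 in -Asn+Fe over +Asn became 12 when each library was centred on its median, and leaving out 1 library gave 3 to 4 and 2 to 5. The cause was not tested.

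Libraries with the same replicate number deviated together with correlations between -0.08 and 0.07 in RNA and -0.21 and 0.09 in widths, so the numbers were not taken to pair the samples. With the replicate number as a block 13 members were higher and 5 lower in -Asn over +Asn, 4 and 7 in -Asn+Fe over -Asn, and 15 and 3 in -Asn+Fe over +Asn. The block left 3 called widths in place of 5 in -Asn over +Asn and 3 in place of 4 in -Asn+Fe over +Asn.

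The sign of a log2 change turned for these members in the comparisons named. Of the changes that turned, that of SNHG16 alone had been called, and several of the members were called in other comparisons. In -Asn over +Asn, library totals gave 0.044 for SNHG20, 0.052 for SNHG30 and 0.049 for SNHG21, and upper-quartile factors gave 0.004 for SNHG30. In -Asn+Fe over -Asn, SNHG15 was 0.027 with upper-quartile factors, 0.022 with library totals and 0.024 with the stricter filter. Between -Asn+Fe and +Asn, upper-quartile factors and library totals gave 0.031 and 0.075 for SNHG16, 0.176 and 0.219 for SNHG26 and 0.168 and 0.211 for SNHG21, and SNHG26 was 0.134 with the stricter filter. SNHG3 was -0.005 with RLE factors, -0.005 with DESeq2 and -0.021 with no filter. With 1 library left out, SNHG7 ran between -0.187 and 0.0, SNHG17 between -0.122 and 0.016 and SNHG15 between -0.095 and 0.058 in -Asn+Fe over -Asn. With the same libraries left out in -Asn+Fe over +Asn, SNHG3 ran between -0.078 and 0.068, SNHG26 between -0.078 and 0.017 and SNHG21 between -0.1 and 0.058.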
